A study of Homo sapiens with 2 samples.

Results

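Described here are 10 genes of the 23352 listed in A673 cells: the aldo-keto reductase genes AKR1C1, AKR1C2, AKR1C3 and AKR1B1, the antioxidant genes NQO1, HMOX1, GCLC, GCLM and TXNRD1, and NFE2L2, which encodes NRF2. They were chosen by name, with their differences between these libraries already known, so every value is a description and none is a test. A673, an established Ewing sarcoma cell line, carries the EWSR1/FLI1 fusion. The study set A673 cells given an shRNA (a short hairpin RNA) for RUNX3, a transcription factor of the Runt family, beside cells given a non-target hairpin. Both hairpins came in lentivirus made in HEK 293T cells, collected after 72 hours and applied with polybrene at 6 µg/mL. Both cell populations were then held in puromycin at 0.4 µg/mL for 6 days, and the titles call each one a pool.

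Each group has 1 library of poly(A) RNA, so no difference below has a replicate check and no p-value is given. For both libraries the title goes against the shRNA tag. The library titled 813, the number of the RUNX3 hairpin, is tagged non-target, and the library titled NT is tagged with the RUNX3 hairpin. They are named here by their titles, as the 813-titled and the NT-titled library, and taking the characteristic instead turns every direction round. RUNX3 itself had 387 read pairs (15.8 CPM, counts scaled to the TMM effective library size) in the 813-titled library and 1391 pairs (59.9 CPM) in the NT-titled library. Its level was thus lower in the library whose title names the RUNX3 hairpin, by a log2 fold of -1.92 (interval -2.09 to -1.76).

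NRF2 is a transcription factor that is normally held down in the cytoplasm by KEAP1, an adaptor that hands it to the CUL3 ubiquitin ligase for destruction. When oxidants or electrophiles modify KEAP1, NRF2 accumulates, pairs with a small MAF protein and binds the antioxidant response element, where BACH1 acts as a competing repressor. Its textbook targets include enzymes that make glutathione, reduce quinones and thioredoxin, and break down haem, and in human cells the AKR1C genes. AKR1C enzymes reduce ketosteroids, prostaglandins and reactive carbonyls, and they are encoded side by side on chromosome 10.

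AKR1C1, AKR1C2 and AKR1C3 are close copies of one another, and that bears on how reads can be assigned to each. Over the 845 bases of 7 matching coding exons in GENCODE release 29 (GRCh38), AKR1C1 and AKR1C2 were 97.9% identical. AKR1C3 was 91.8% identical to AKR1C1 and 91.2% identical to AKR1C2. AKR1C4, a relative known from liver, was 88.8% identical to AKR1C3. The 123-base exon is shown because it is one of the most alike across the family and because AKR1C4, barely counted as a gene, held many reads there. Capitals mark bases that differ from AKR1C3, and each line is written 5′ to 3′ on the gene's strand.
AKR1C1, chr10:4968822-4968944, plus strand: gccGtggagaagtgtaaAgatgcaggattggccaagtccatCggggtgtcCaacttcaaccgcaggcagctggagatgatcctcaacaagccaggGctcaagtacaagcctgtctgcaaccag
AKR1C2, chr10:4998625-4998747, minus strand: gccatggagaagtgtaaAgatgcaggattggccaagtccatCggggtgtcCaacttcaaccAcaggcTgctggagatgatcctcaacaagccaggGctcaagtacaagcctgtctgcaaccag
AKR1C3, chr10:5099327-5099449, plus strand: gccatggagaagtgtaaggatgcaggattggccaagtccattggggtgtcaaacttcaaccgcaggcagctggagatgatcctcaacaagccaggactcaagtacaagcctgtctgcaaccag
AKR1C4, chr10:5206275-5206397, plus strand: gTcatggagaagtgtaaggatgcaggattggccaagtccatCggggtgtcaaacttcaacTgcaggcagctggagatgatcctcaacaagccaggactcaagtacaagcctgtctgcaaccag

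The 83-base exon is shown as a contrast, since it separates AKR1C3 from the other genes best while AKR1C1 and AKR1C2 cannot be told apart in it. The first line holds for AKR1C1 at chr10:4975851-4975933 and, letter for letter, for AKR1C2 at chr10:4991831-4991913 (GRCh38). Capitals again mark differences from AKR1C3.
AKR1C1 and AKR1C2: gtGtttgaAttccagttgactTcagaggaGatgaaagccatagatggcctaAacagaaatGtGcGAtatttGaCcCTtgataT
AKR1C3, chr10:5105595-5105677: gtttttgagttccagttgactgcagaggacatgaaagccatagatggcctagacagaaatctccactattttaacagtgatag
AKR1C4, chr10:5216711-5216793: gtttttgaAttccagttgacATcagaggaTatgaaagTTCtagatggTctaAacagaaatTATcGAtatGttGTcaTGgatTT

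All 10 genes had more scaled pairs in the 813-titled library, and 4 of the 10 passed the rule for a higher call: AKR1C1, AKR1C2, AKR1C3 and GCLC. A gene was called at 2-fold or more with its whole 95% interval beyond 1.5-fold, and a gene counted as measured where either library reached 1 CPM. Of all 12254 measured genes, 8.13% were called higher in the 813-titled library and 3.48% lower, or 11.6% in either direction. Under a looser 1.5-fold rule 7 of the 10 genes passed, with AKR1B1, NQO1 and TXNRD1 added, and so did 19.8% of all measured genes. The 10 genes had a median log2 fold of 0.94, and all measured genes had a median of 0.01, with 50.7% above 0. Since the genes were picked for their folds, that gap was built into the choice. Under plain total counts, which move every log2 fold up by 0.14, 81.5% of all called genes were higher, and under the scaling used here 70.0% were.

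**Figure D1:**
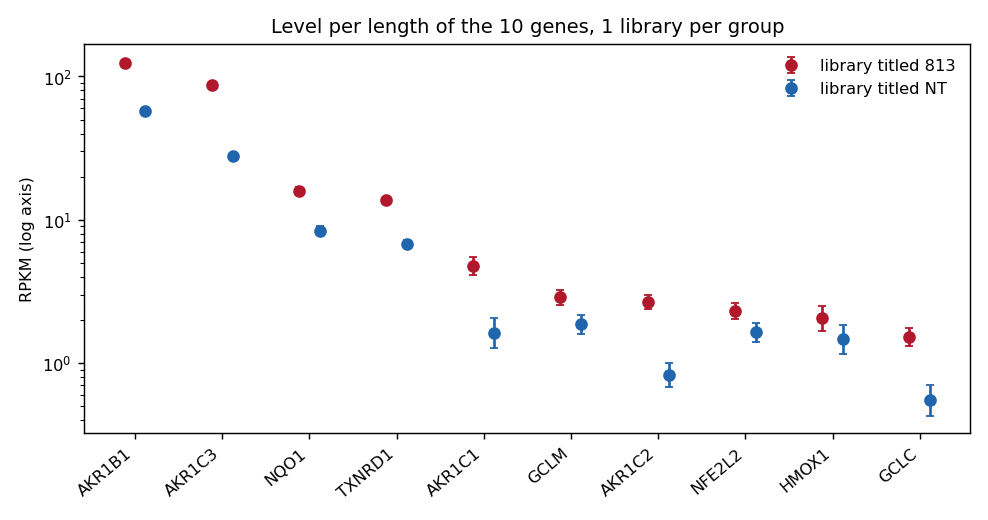
Levels of the 10 genes in RPKM (reads scaled to gene length and library total) on a log axis, with 1 point per library and bars for the exact 95% Poisson interval of the count. AKR1B1 and AKR1C3 stand at the top in both libraries, from 28.1 to 123 RPKM, and GCLC stands lowest in both. Levels come from gene counts, which for AKR1C1 and AKR1C2 are small beside their exon reads.

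Per gene length, the order of the genes was much the same in both libraries. In the 813-titled library, AKR1B1 was at 123 RPKM, AKR1C3 at 86.8, NQO1 at 16.0, TXNRD1 at 13.8 and AKR1C1 at 4.79, and the intervals of these 5 neighbours did not overlap. Below them stood GCLM at 2.89 RPKM, AKR1C2 at 2.67, NFE2L2 at 2.32, HMOX1 at 2.07 and GCLC at 1.53, and each of these overlapped the next in its counting interval. AKR1B1, AKR1C3, NQO1 and TXNRD1 kept their order in the NT-titled library, at 57.3, 28.1, 8.40 and 6.75 RPKM. The rest lay close together there, from GCLM at 1.86 RPKM through NFE2L2 at 1.65, AKR1C1 at 1.63 and HMOX1 at 1.47 to AKR1C2 at 0.831 and GCLC at 0.557. Neighbours in that lower part of the order overlapped in their counting intervals, except HMOX1 and AKR1C2. By gene counts, AKR1C1 thus stood clear of the low genes in the 813-titled library and among them in the NT-titled library. Its place is uncertain, since its exon records list 2395 and 682 reads where the gene counts are 402 and 142.

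AKR1C3 (chr10:5090958-5149878, hg19), a hydroxysteroid dehydrogenase that makes testosterone and also acts as a prostaglandin F synthase, was the most abundant of the AKR1C genes. It had 5228 pairs (214 CPM) in the 813-titled library and 1757 pairs (75.7 CPM) in the NT-titled library, a log2 fold of 1.497 (interval 1.42 to 1.58). AKR1C2 (chr10:5029968-5060225), which inactivates dihydrotestosterone, had 338 pairs (13.8 CPM) against 109 pairs (4.70 CPM), a log2 fold of 1.55 (1.24 to 1.88). AKR1C1 (chr10:5005454-5020158), which inactivates progesterone, had 201 pairs (8.22 CPM) against 71 pairs (3.06 CPM), a log2 fold of 1.42 (1.03 to 1.84). The 3 intervals overlapped one another. AKR1C3 thus carried 90.7% of the pairs of the 3 genes in each library. Of the reads listed on their exons it held 77.0% in the 813-titled and 79.9% in the NT-titled library. The sum of 5767 and 1937 pairs gave a log2 fold of 1.498 (1.42 to 1.57). A trend on gene length and GC content accounted for 15.5% of the variance of log2 folds over measured genes with a GC value. With it removed, AKR1C1, AKR1C2 and AKR1C3 stood lower, at 1.24, 1.23 and 1.29, and were still called.

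The gene counts of AKR1C1 and AKR1C2 were small beside the reads listed on their exons. Gene counts are given here as deposited, at 2 reads a pair. AKR1C1 had 402 and 142 reads as a gene in the 813-titled and NT-titled libraries, but 2395 and 682 summed over its 9 exon records, a ratio of 5.66 over both libraries. AKR1C2 had 676 and 218 reads as a gene and 3101 and 860 on its exon records, a ratio of 4.43. Of 10590 genes with at least 200 counts, 1.18% exceeded the ratio of AKR1C1 and 1.41% that of AKR1C2, and the median was 1.20. AKR1C3 had a ratio of 1.76, exceeded by 6.25% of genes, and the other 7 genes lay between 1.15 and 1.33. The level of AKR1C1 or AKR1C2 therefore depended on which table was read, while both tables put them higher in the 813-titled library. The exon reads are not separate support for that direction, since some may be shared with AKR1C3, itself higher there.

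**Figure D2:**
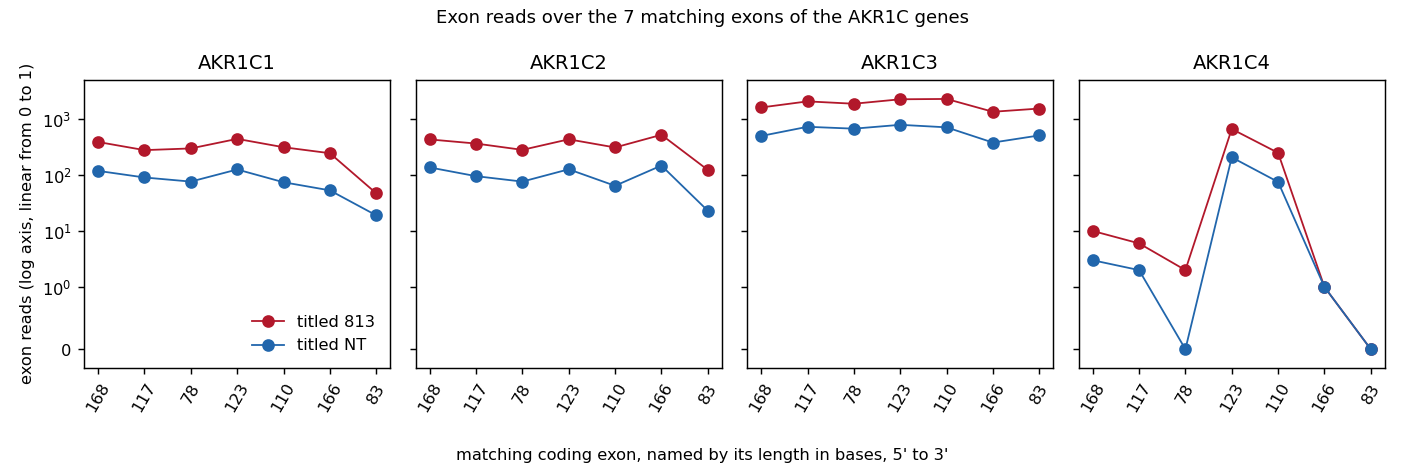
Reads as deposited on each of 7 matching exons of AKR1C1, AKR1C2, AKR1C3 and AKR1C4, with 1 line per library, on an axis that is linear from 0 to 1 and log above, with exons named by their length in bases. AKR1C3 is highest at every exon, and AKR1C4 is near 0 at most exons but holds 660 and 206 reads at its 123-base exon.

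AKR1C4 showed how unevenly reads fell on this family. As a gene it had 7 pairs in the 813-titled library and 0 in the NT-titled library, and it was under 1 CPM in both. With 0 pairs in the NT-titled library, the interval of its log2 fold has only a lower bound, 0.45. Its 123-base exon nevertheless held 660 and 206 reads, and its 110-base exon 248 and 75. The 123-base exon is the one printed above that differs from AKR1C3 at only 3 bases, with an identical run of 62 bases. The 110-base exon is 90.0% identical to those of AKR1C1 and AKR1C2 and 85.5% identical to that of AKR1C3. Its 83-base exon, which differs from AKR1C3 at 21 bases, held 0 reads in both libraries. Reads did not follow likeness throughout: the 168-base exon of AKR1C4, 94.0% identical to AKR1C3 with a run of 95 identical bases, held 10 and 3 reads. Its 166-base exon, with a run of 78 bases shared with AKR1C2 and AKR1C3, held 1 read in each library. Reads listed on AKR1C4 are therefore reported as uncertain.

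Between AKR1C2 and AKR1C3 the 166-base exon is identical at all 166 bases. AKR1C3 had 1340 and 378 reads there in the 813-titled and NT-titled libraries, below the 2270 and 707 on its shorter 110-base exon. AKR1C2 had 520 and 147 reads on its 166-base exon, more than on any of its other matching exons in either library. On the 83-base exon, where AKR1C3 is most distinct, AKR1C3 had 1530 and 507 reads, a log2 fold of 1.52 (1.31 to 1.73). AKR1C1 had 47 and 19 reads on that exon and AKR1C2 had 123 and 23. Reads on exons shared by several genes cannot be assigned to 1 gene from these tables, so AKR1C1 and AKR1C2 are reported as uncertain against each other and against AKR1C3.

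Whichever exon was read, the direction was the same for these 3 genes. The 11 records of AKR1C3 had log2 folds from 1.40 to 1.75, each with an interval above 0. The 9 records of AKR1C1 ran from 1.19 to 2.11, and the 10 records of AKR1C2 with at least 50 reads over both libraries ran from 1.45 to 2.30. Records of AKR1C3 that start at the same base share reads and are not separate evidence. Nor are records of AKR1C1 and AKR1C2 on exons close to those of AKR1C3, where reads may be shared.

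AKR1B1 (chr7:134127107-134143888), aldose reductase, which turns glucose into sorbitol and also reduces lipid aldehydes, had 5251 pairs (215 CPM) in the 813-titled library and 2531 pairs (109 CPM) in the NT-titled library, a log2 fold of 0.98 (0.91 to 1.05). It was thus the gene just outside the 2-fold rule, as GCLC at 1.32 was just inside it. Its call turned on the scaling, since AKR1B1 stood at 1.11 under plain total counts and under the ratio of the authors' RPKM and at 1.23 with a trend on gene length and GC content removed, all called. The 10 exon records of AKR1B1 lay within 0.90 to 1.02, the narrowest range among those of the 10 genes with more than 1 record of at least 50 reads.

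**Figure D3:**
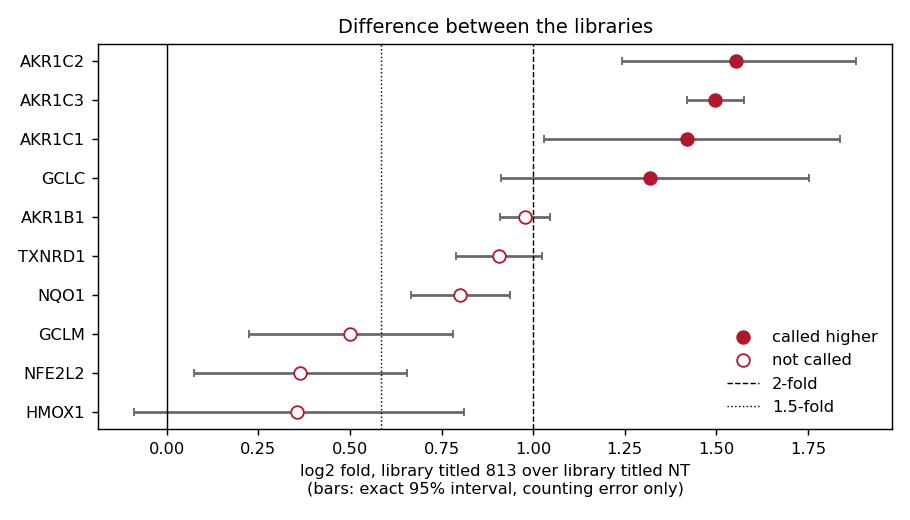
Log2 fold of the 813-titled library over the NT-titled library for each of the 10 genes, with exact 95% binomial intervals that cover counting error only and lines at no difference, 1.5-fold and 2-fold. All 10 points are above 0, from 0.36 for HMOX1 and NFE2L2 to 1.55 for AKR1C2, and under this scaling only the interval of HMOX1 crosses 0.

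Glutathione is made in 2 steps, and its first enzyme, glutamate-cysteine ligase, consists of a catalytic subunit from GCLC and a modifier subunit from GCLM. GCLC (chr6:53362140-53409927) had 177 pairs (7.24 CPM) in the 813-titled library and 67 pairs (2.89 CPM) in the NT-titled library, a log2 fold of 1.32 (0.91 to 1.75). GCLM (chr1:94352590-94375012) had 270 pairs (11.0 CPM) against 181 pairs (7.80 CPM), a log2 fold of 0.50 (0.22 to 0.78), and was not called. The interval of GCLM ended below the start of that of GCLC. With the trend on gene length and GC content removed, GCLC stood at 0.97 (0.56 to 1.40), no longer called, and its interval overlapped that of GCLM at 0.46 (0.18 to 0.74).

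The 16 exon records of GCLC were all above 0, from 0.06 to 2.97, but most held few reads. Its 183-base record (chr6:53385576-53385758) had 40 reads in the 813-titled library and 4 in the NT-titled library, a log2 fold of 2.97 (1.21 to 6.39). Its long last record (chr6:53362140-53363765) had 102 and 49 reads, a log2 fold of 0.97 (0.26 to 1.74). At this depth the 2 intervals overlapped. The 7 records of GCLM ran from -0.07 to 0.72, and 1 of them had an interval wholly above 0.

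NQO1 (chr16:69743304-69760533), which reduces quinones and is a standard readout of NRF2, had 1261 pairs (51.6 CPM) in the 813-titled library. In the NT-titled library it had 687 pairs (29.6 CPM), and the log2 fold was 0.80 (0.67 to 0.94). NQO1 was not called, and its 6 exon records ran from 0.61 to 1.04, each with an interval above 0. With the trend on gene length and GC content removed, NQO1 stood at 0.59 (0.46 to 0.73).

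TXNRD1 (chr12:104609559-104744062), the cytosolic selenoenzyme that reduces thioredoxin, had 1781 pairs (72.8 CPM) in the 813-titled library and 902 pairs (38.9 CPM) in the NT-titled library. Its log2 fold was 0.91 (0.79 to 1.02), not called, and TXNRD1 passed the rule at 1.04 under plain total counts and at 1.03 under the ratio of the authors' RPKM. With the trend on gene length and GC content removed it stood at 0.55 (0.43 to 0.66). The lowest fold among its 16 exon records with at least 50 reads is set here beside that of the last record. The 398-base record near the start of the transcribed part (chr12:104680727-104681124) had 106 and 104 reads in the 813-titled and NT-titled libraries, a log2 fold of -0.05 (-0.63 to 0.53). The last record (chr12:104742131-104744062) had 1732 and 745 reads, a log2 fold of 1.14 (0.96 to 1.32), and its interval lay wholly above that of the 398-base record. The 3 records before these, at the upstream end of the annotated gene, had 0 reads in both libraries, and 2 records that share the start at 104680727 share reads.

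Read off the records at the 2 ends, TXNRD1 had a fold that was larger at the 3′ end by 0.81 on the log2 scale. The 5′ record here was the 161-base one that shares its start with the 398-base record. It had 56 and 42 reads and a log2 fold of 0.33 (-0.53 to 1.23), an interval that overlapped that of the last record. Over 7021 genes with enough reads the median of the same difference was 0.04 (quartiles -0.16 to 0.25), and TXNRD1 exceeded 95.8% of them. RUNX3 showed a difference of 0.63 and exceeded 92.4%. This measure was added after the values had been seen. AKR1C1, AKR1C2, AKR1C3, AKR1B1, NQO1, GCLM and NFE2L2 had differences from -0.23 to 0.26 by the same measure.

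**Figure D4:**
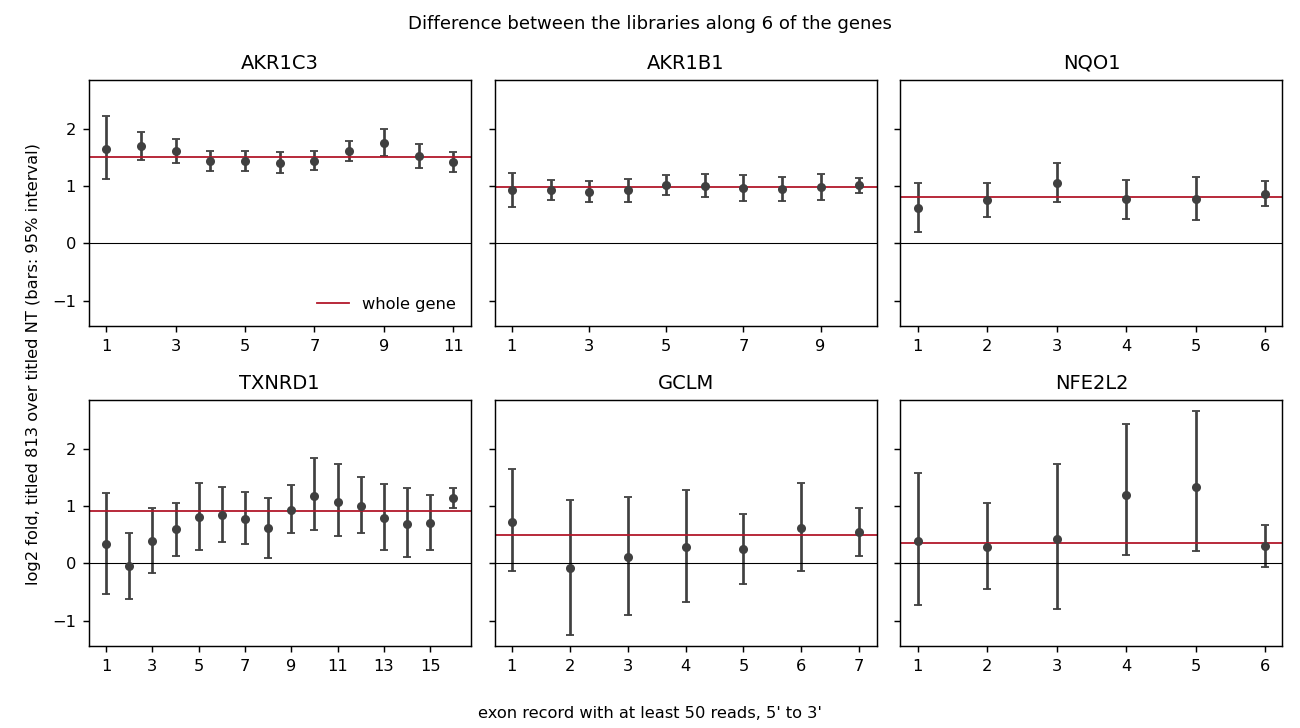
Log2 fold along 6 of the genes, with 1 point per exon record with at least 50 reads over both libraries, in transcript order from 5′ to 3′, bars for exact 95% intervals of counting error and a line at the fold of the whole gene. AKR1B1 is flat between 0.90 and 1.02, while TXNRD1 goes from -0.05 to 0.39 over its first records with reads to 1.14 at its last.

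HMOX1 (chr22:35777060-35790207), haem oxygenase 1, which breaks haem down to biliverdin, iron and carbon monoxide, was low in both libraries. It had 100 pairs (4.09 CPM) in the 813-titled library and 74 pairs (3.19 CPM) in the NT-titled library, a log2 fold of 0.36 (-0.09 to 0.81). Under this scaling a difference in HMOX1 was not detectable at this depth. Its interval lay above 0 in 4 other settings, and in none was it called. HMOX1 stood at 0.49 (0.046 to 0.95) under plain total counts and 0.49 (0.04 to 0.94) under the ratio of the authors' RPKM. With the trend on gene length and GC content removed it stood at 0.74 (0.29 to 1.19). With undivided counts it stood at 0.36 (0.045 to 0.68). That setting counts both reads of each pair as separate, which narrows the interval without adding evidence. Both of its exon records with at least 50 reads had intervals that crossed 0, at 0.07 and 0.57.

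NFE2L2 (chr2:178095031-178129859), the gene of NRF2 itself, was a low transcript in both libraries. It had 236 pairs (9.65 CPM) in the 813-titled library and 174 pairs (7.50 CPM) in the NT-titled library, a log2 fold of 0.36 (0.08 to 0.66), and was not called. With the trend on gene length and GC content removed, NFE2L2 stood at 0.08 (-0.21 to 0.37), an interval that crossed 0. NRF2 is controlled mainly at the level of the protein, which these libraries do not measure. The 267-base exon of NFE2L2 (chr2:178098733-178098999) had 75 and 58 reads, a log2 fold of 0.29 (-0.44 to 1.05). The largest fold along NFE2L2 was 1.32 (0.22 to 2.66) on a 171-base record with 49 and 18 reads, which shares reads with the overlapping 192-base record.

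Of 24 listed regulators and partners of NRF2, 22 were measured and 0 were called in either direction, beside 11.6% of all measured genes. Their median log2 fold was 0.10, and they ran from USP11, a deubiquitinase, at -0.77 (-0.81 to -0.72) to ATF3 at 0.99. KEAP1 had 6542 pairs in the 813-titled library and 6120 in the NT-titled library, a log2 fold of 0.02 (-0.03 to 0.07). CUL3 stood at 0.16 (-0.08 to 0.41). BACH1 had 126 and 80 pairs, for a log2 fold of 0.58 (0.16 to 1.003). The small MAF genes stood at 0.20 for MAFF, -0.15 for MAFG and -0.18 for MAFK. ATF4, a stress-response factor and the list's highest gene in RPKM, stood at -0.31 (-0.34 to -0.28). ATF3, a stress-induced transcription factor, came nearest to a call, with 361 and 172 pairs, and its log2 fold was 0.99 (0.73 to 1.26), and it was singled out after its value was seen.

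Other genes listed as NRF2 targets were spread on both sides of 0. The list does not say whether NRF2 raises or lowers each gene, TXNIP among them. Of 45 listed, 41 were measured, 2 were called higher and 4 lower, and 17 lay above 0. Among all measured genes, 8.13% were called higher and 3.48% lower, and 50.7% lay above 0. The list's median log2 fold of -0.10 turned to 0.04 under plain total counts, 0.03 under the ratio of the authors' RPKM and 0.11 with the trend on gene length and GC content removed. ABCC3, an exporter of glutathione and glucuronide conjugates, had 97 pairs in the 813-titled library and 24 in the NT-titled library, a log2 fold of 1.92 (1.28 to 2.65). SRXN1, sulfiredoxin, which restores oxidised peroxiredoxins, had 363 and 151 pairs, for a log2 fold of 1.19 (0.91 to 1.47). The 4 called lower were TXNIP at -1.99, OSGIN1 at -1.96, PANX2 at -1.87 and BLVRB at -1.32. TXNIP is an inhibitor of thioredoxin, and BLVRB is a biliverdin reductase.

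SLC7A11 and FTH1, NRF2 targets that are often measured beside NQO1, were picked out after their values were seen. They do not stand for the list. Of its 41 measured genes 17 lay above 0, such as the exporter gene ABCC4 at 0.71 (0.54 to 0.89), not called. SLC7A11, the cystine importer, stood at 0.17 (-0.22 to 0.57) with 119 and 100 pairs, an interval that crossed 0. FTH1, the ferritin heavy chain, stood at -0.79 (-0.81 to -0.77), with 958 CPM in the 813-titled library and 1656 CPM in the NT-titled library.

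**Figure D5:**
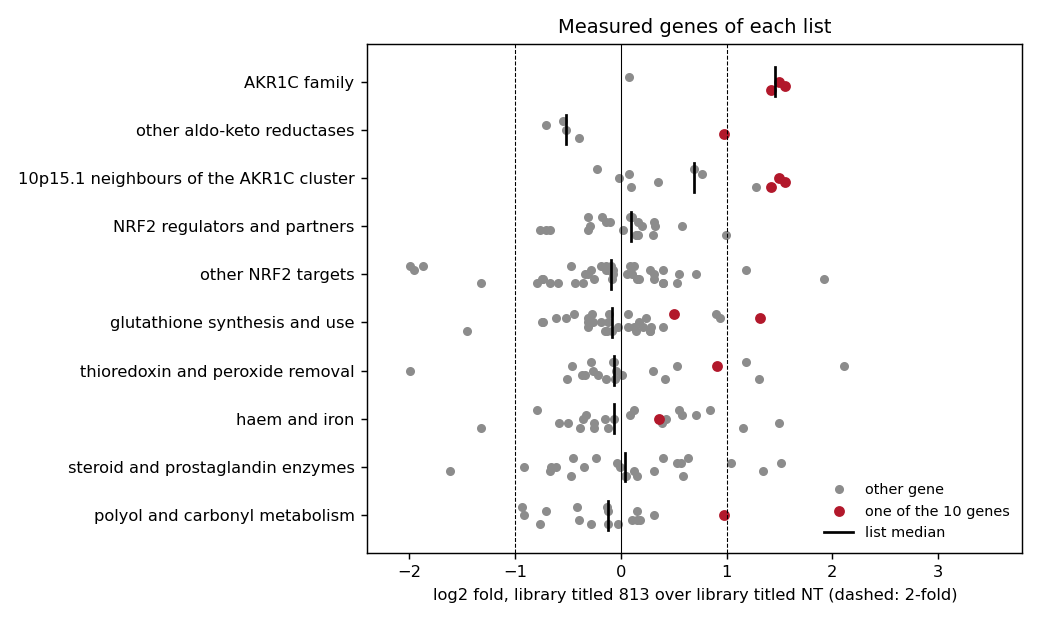
Log2 fold of every measured gene of each list, with 1 point per gene and the median of the list marked. AKR1C1, AKR1C2 and AKR1C3 sit at 1.42 to 1.55, while the other NRF2 targets spread on both sides of 0 around a median of -0.10, which is 0.04 under plain total counts.

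Around GCLC and GCLM, the wider glutathione list had 33 measured genes. In it 1 was called higher, GCLC itself, and 1 lower, OPLAH, a 5-oxoprolinase that recycles glutamate, at -1.46, beside 8.13% higher and 3.48% lower among all measured genes. Uncalled members had intervals away from 0 on both sides, such as GLRX, a glutaredoxin, at 0.94 (0.60 to 1.30) and MGST1, a membrane-bound glutathione transferase, at -0.74 (-0.94 to -0.54). Without GCLC and GCLM the list had 31 measured genes, of which 0 were called higher. GSS, the enzyme of the next step after glutamate-cysteine ligase, stood at -0.31 (-0.39 to -0.23), and GSR, which regenerates reduced glutathione, at -0.19 (-0.25 to -0.13).

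Around TXNRD1, the list of thioredoxin and peroxide-removing genes had 21 measured members, of which 2 were called higher and 1 lower. The shares among all measured genes were 8.13% higher and 3.48% lower. The list median was -0.06, or 0.07 under plain total counts. The called genes were MSRB3, a methionine sulfoxide reductase, at 2.11, SRXN1 as given above, and TXNIP. TXNRD2, the mitochondrial counterpart of TXNRD1, had 1768 and 1751 pairs, and its log2 fold was -0.06 (-0.16 to 0.03). TXN, the thioredoxin that TXNRD1 reduces, stood at -0.14 (-0.24 to -0.04).

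Of the other aldo-keto reductases, 0 were called in either direction, beside 11.6% of all measured genes. AKR1A1, AKR7A2, KCNAB2 and KCNAB3 were the 4 measured besides AKR1B1, and they stood at -0.40, -0.52, -0.71 and -0.55, none called. AKR1A1, aldehyde reductase, had 4971 and 6207 pairs. With AKR1B1 the list had a median of -0.52, which was -0.38 under plain total counts and -0.16 with the trend on gene length and GC content removed. AKR1E2, which lies in the same chromosome 10 cluster, had 311 and 280 pairs, and its log2 fold was 0.08 (-0.16 to 0.31). AKR1CL1, a further member of the cluster, had 6 pairs and 1 pair.

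Among genes next to the AKR1C cluster on 10p15.1, 8 were measured besides the 3 AKR1C genes. Beside 8.13% higher and 3.48% lower among all measured genes, 1 of the 8 was called higher and 0 lower. That gene was NET1, a guanine nucleotide exchange factor for RhoA, with 598 pairs in the 813-titled library and 234 in the NT-titled library, a log2 fold of 1.28 (1.06 to 1.502). GDI2 stood at 0.76 and IL15RA at 0.69. ASB13 at 0.10, FAM208B at 0.36, FBXO18 at -0.02 and ANKRD16 at -0.22 were nearer to 0. UCN3 and CALML5 had 0 pairs in both libraries.

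By level in the 2 libraries, the genes nearest to AKR1C3 were HMCN1, SLAIN1 and KIAA1456, with distances of 0.216, 0.218 and 0.226 between their log2 CPM values and those of AKR1C3. HMCN1 had 5988 and 1872 pairs and a log2 fold of 1.60. SLAIN1 had 4706 and 1577 pairs and a log2 fold of 1.5. KIAA1456 had 4635 and 1942 pairs and a log2 fold of 1.18. With 2 libraries this likeness rests on 2 values per gene.

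Promoters are shown for the genes that differed together and for those that held the core of the antioxidant response element, written TGACNNNGC and searched on both strands in the 250 bases before each start. RefSeq promoters (GRCh38.p14) were matched for 9 of the 10 genes, all but HMOX1, with 13 starts in all. Bases farther upstream were not searched, so a start without a match does not show that the gene lacks the element. The core was found in 10.9% of 35116 promoters and at 3 of these 13 starts, those of GCLM and both of TXNRD1. Of the TXNRD1 windows, the one at chr12:104215650-104215718 is the more upstream. The 3 exon records at the upstream end of TXNRD1 had 0 reads in both libraries. Each line below is written on the gene's strand with the match in capitals.
GCLM, chr1:93909431-93909494, minus strand: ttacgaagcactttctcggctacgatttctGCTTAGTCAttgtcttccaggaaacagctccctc
TXNRD1, chr12:104286900-104286968, plus strand: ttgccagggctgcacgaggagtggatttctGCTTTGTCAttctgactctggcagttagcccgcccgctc
TXNRD1, chr12:104215650-104215718, plus strand: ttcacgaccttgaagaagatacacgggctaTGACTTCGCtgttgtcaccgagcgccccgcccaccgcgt

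The AKR1C promoters held a CCAAT box on the reverse strand, searched as CCAAT on both strands and present in 32.0% of all promoters. It was found at 8 of the 13 starts, in AKR1C1, AKR1C2, AKR1C3, AKR1B1, GCLC and TXNRD1. The AKR1C1 and AKR1C2 promoters were identical at 245 of 246 aligned bases, or 99.6%. AKR1C3 was less alike, at 76.8% to AKR1C1 from one start and 79.1% from the other. The windows around the box are given because they show that the AKR1C1 and AKR1C2 letters are the same throughout. Those of AKR1C3 differ mostly at bases farther from the box. Directly beside the box all the windows were largely alike, from acatgc before it to ttaacca after it. Capitals mark the box.
AKR1C1, chr10:4963308-4963372, and AKR1C2, chr10:5003904-5003968: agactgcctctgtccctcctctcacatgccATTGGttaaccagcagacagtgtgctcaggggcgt
AKR1C3, chr10:5048678-5048742: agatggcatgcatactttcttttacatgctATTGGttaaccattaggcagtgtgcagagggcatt
AKR1C3, chr10:5094298-5094362: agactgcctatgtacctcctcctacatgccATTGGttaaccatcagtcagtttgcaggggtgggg
A match describes letters in the window and says nothing of binding.

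The labelled cell type was checked by its markers. All 16 listed Ewing sarcoma genes were at 1 CPM or more in both libraries, with a summed level of 7790 CPM in the 813-titled library and 7360 CPM in the NT-titled library. Of these, ETV4 was called higher in the 813-titled library and PPP1R1A, NKX2-2 and NR0B1 lower. Hepatocyte markers, of interest because liver is rich in AKR1C enzymes, summed to 4.58 and 4.91 CPM over 8 genes, with ALB, APOB, TTR, SERPINA1, CYP3A4 and HNF4A at 0 in both. Fibroblast markers summed to 3526 and 2876 CPM, with 6 and 5 of 8 genes at 1 CPM or more and COL1A2 the highest. Leukocyte markers summed to 14.5 and 15.9 CPM, endothelial to 4.21 and 2.33 CPM and epithelial, led by KRT18, to 674 and 636 CPM. CD3E and TEK were at 0 in both libraries, ITGAM was called lower and KDR higher in the 813-titled library. The part of these differences in the levels of the 10 genes was not tested, and fewer cells with a transcript cannot be told apart from less transcript per cell in bulk RNA.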

How the data were processed

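Poly(A) RNA-seq of 2 A673 libraries was used, 1 per group, grouped by title. Per the file headers, the authors deposited raw counts and RPKM per gene and per exon for each library. The submitters' processing notes name CASAVA 1.9, TopHat2 2.0.6, HTSeq and hg19, with no role or order. The annotation, the strand setting and any filter: not given in the sources used here. Genes that overlap, or lie antisense, may therefore share reads. All deposited gene counts were even, while 36.4% and 35.5% of exon counts were odd, so gene counts were divided by 2 and are called pairs (23342660 in the 813-titled library and 24326135 in the NT-titled library). Exon reads are given as deposited and were divided by 2 for folds and intervals.

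The log2 fold is the 813-titled library over the NT-titled library, with TMM scaling (edgeR 4.0.16 in R 4.3.3) and a prior of 0.5 pairs. Intervals are exact 95% conditional binomial (Clopper-Pearson) for folds and exact Poisson for levels (scipy 1.17.1, Python 3.11.15). They cover counting error only, as copies made by PCR are not separate molecules. Where the fixed design assumed counts as deposited, halved counts were used and the undivided ones run as an alternative.

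The 10 genes, the lists and the rules were chosen with earlier results of these data known. Genes named are the 10, RUNX3, the AKR1C family and its 10p15.1 neighbours, KEAP1, BACH1, CUL3, the small MAFs, up to 4 called genes per direction in each list (the highest-RPKM gene where none was called) and the 3 genes nearest to AKR1C3 in level. A few further list members are named for their role, chosen after their values were seen. Lists share genes. Exon sequences come from GENCODE release 29 and promoters from RefSeq. Some genes that the rule or the lists name are not reported here.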

Additional observations from a re-analysis of the deposited data

How the results depend on the processing

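With 1 library per group, counting error is the only error that can be given, and low genes such as HMOX1 and GCLC are limited by depth. No paired analysis was possible because each group has 1 library, and no library could be left out. Each of the 10 genes was recomputed with plain total counts, DESeq2 1.42.0 size factors, upper-quartile scaling, the ratio of the authors' RPKM, a trend on gene length and GC content removed, a 1.5-fold rule, undivided counts, a prior of 2 pairs and summed exon reads, and AKR1C1, AKR1C2 and AKR1C3 also as their sum. These settings were not independent, and some could hardly change a sign. The 1.5-fold rule leaves each fold unchanged, and each other scaling shifts every gene by the same amount. The sum was entered once for each of AKR1C1, AKR1C2 and AKR1C3. All 93 values lay above 0, and 84 kept their side of the rule. The exceptions were AKR1B1, called at 1.11 under total counts, 1.11 under RPKM, 1.23 with the trend removed and 0.98 under the 1.5-fold rule; TXNRD1, called at 1.04, 1.03 and, under the 1.5-fold rule, 0.91; NQO1, called at 0.80 under the 1.5-fold rule; and GCLC, not called at 0.97 with the trend removed. The cause was not tested. The 1.5-fold rule called 7 of the 10 genes higher instead of 4, and 2429 of all measured genes (19.8%) higher instead of 996 and 1370 lower instead of 427. Removing the trend left 274 called lower, with fewer genes tested.

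Among the lists, the 10 genes included, 253 of 288 recomputed counts and medians stayed within a loose limit of the reported value. A median could change sign within that limit. That of the other NRF2 targets did so, from -0.10 to 0.11 with the trend removed. The 1.5-fold rule could not move a median at all. Under the 1.5-fold rule 9 other NRF2 targets were lower instead of 4, and a 5 CPM filter left 1 higher instead of 2. The median of the glutathione list turned from -0.08 to 0.05 under total counts. Glutathione genes called higher numbered 3 under total counts, RPKM and the 1.5-fold rule, 2 with no filter and 0 with the trend removed, instead of 1. Thioredoxin genes called higher numbered 4 instead of 2 under the same 3 settings. NRF2 regulators had 1 called higher under those settings and 2 lower under the 1.5-fold rule, instead of 0. The median of the other aldo-keto reductases moved from -0.52 to -0.16 with the trend removed. In the haem and iron list the trend left 1 higher and 0 lower, and the 1.5-fold rule gave 4 and 2. Steroid and prostaglandin genes numbered 4 higher and 5 lower under the 1.5-fold rule, 2 higher with undivided counts and 0 higher with the 5 CPM filter. Polyol genes had 1 called higher, AKR1B1, wherever AKR1B1 was called, and 4 lower under the 1.5-fold rule.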

Other observations

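Genes that handle the substrates of the AKR1C enzymes, HMOX1 and AKR1B1 were looked at as lists of their own. Of 24 measured steroid and prostaglandin enzymes, 1 was called higher in the 813-titled library and 1 was called lower, around a median of 0.04. Among all measured genes, 8.13% were called higher and 3.48% lower. STS, steroid sulfatase, which frees steroids from their sulfates, had 97 pairs in the 813-titled library and 36 in the NT-titled library, a log2 fold of 1.34 (0.79 to 1.95). HSD17B8, a hydroxysteroid dehydrogenase of another protein family, had 222 and 649 pairs, for a log2 fold of -1.62 (-1.85 to -1.40). PTGS2, the inducible cyclooxygenase that starts prostaglandin synthesis, had 25 and 8 pairs, for a log2 fold of 1.51 (0.37 to 2.93), and was not called. SRD5A1, a steroid reductase that makes dihydrotestosterone, stood at 0.64 (0.45 to 0.82).

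Around HMOX1, 23 genes of haem and iron handling were measured, of which 2 were called higher and 1 lower. The shares among all measured genes were 8.13% higher and 3.48% lower. The list median was -0.06, or 0.07 under plain total counts. TFRC, the transferrin receptor that brings iron into cells, had 1938 and 824 pairs, for a log2 fold of 1.16 (1.04 to 1.28). CPOX, an enzyme of haem synthesis, had 301 and 101 pairs, for a log2 fold of 1.495 (1.17 to 1.84). Of the biliverdin reductases, BLVRB was lower at -1.32, and BLVRA stood at 0.12 (-0.05 to 0.30) and was not called. FTL, the ferritin light chain, stood at -0.25 (-0.27 to -0.23), on the same side of 0 as FTH1.

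In the polyol and carbonyl list that holds AKR1B1, 17 genes were measured and 0 were called, beside 11.6% of all measured genes. Of the 17, 6 lay above 0, and the median was -0.12, or 0.01 under plain total counts. SORD, which turns the sorbitol made by AKR1B1 into fructose, had 19173 and 16901 pairs, for a log2 fold of 0.11 (0.08 to 0.14). KHK, which phosphorylates fructose, stood at -0.77 (-0.84 to -0.69), and DCXR, a carbonyl and xylulose reductase, at -0.94 (-0.99 to -0.88).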
